A study of Mus musculus with 13 samples.

Results

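The cytosolic ribosomal protein genes code for the proteins that, together with ribosomal RNA, make up the ribosome of the cytoplasm. They were taken as every row of the count tables whose symbol is Rpl or Rps followed by a number (with an optional letter or copy number), plus Rpsa, Rplp0, Rplp1 and Rplp2, leaving out rows marked -ps and the Rps6k kinases. This gave 88 members of 50508 rows. They comprise 43 genes of the large subunit, 31 of the small subunit, the 3 genes of the stalk and 11 copies of these (Rpl3l, Rpl6l, Rpl7l1, Rpl10l, Rpl22l1, Rpl39l, Rps4l, Rps27l, Rps12l1, Rps3a2 and Rps3a3), of which RefSeq lists Rpl6l, Rps4l, Rps12l1, Rps3a2 and Rps3a3 as pseudogenes. At least 1 unique molecular identifier (UMI, a tag that counts 1 captured RNA molecule) was found for 87 of the 88. Rps12l1 had none.

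The study sorted single tdTomato-positive sensory neurons from mouse dorsal root ganglia into 13 plates of 96 wells and counted UMIs per gene (Plate-seq), to follow proprioceptors, the neurons that innervate muscle spindles and Golgi tendon organs, from embryo to adult. Adult (older than p56), p12 and p0 neurons carried PV:Cre+/-;Rx3:Flp+/-;Ai65+/-, so that tdTomato needs both recombinases, and e14.5 neurons carried TrkC:tdTomato, which labels a wider set of sensory neurons than the intersection does. The authors kept 586 neurons: 169 at e14.5 (2 plates), 55 at p0 (2 plates), 154 at p12 (4 plates) and 208 in the adult (5 plates). They came from 2, 6, 4 and 6 animals of either sex respectively, and the labels do not tie animals to plates. Plates were used as replicates, so the spread below is that between plates, which may be technical. The same 96 well barcodes were used on every plate. Between e14.5 and p0 the labelling allele changed with the age, and the effects of stage and line cannot be told apart.

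Ribosomal proteins are needed in near equal numbers, and their messenger RNAs are among the most abundant of a growing cell. Their transcripts typically begin with a C followed by a run of pyrimidines, the 5′ terminal oligopyrimidine tract, through which mTOR and LARP1 control their translation together. In the nervous system some of these transcripts are carried into axons, and many members have processed pseudogenes, copies of the spliced transcript elsewhere in the genome, which makes their short reads hard to place.

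A pyrimidine run at the start site was present in some members and absent from others. To show both, the 30 bases around the annotated start (15 before and 15 after it) are given for members that figure in the results, all on the transcribed strand. Windows of 300 bases (250 before and 50 after the start, RefSeq, GRCm38.p6) were held for 63 of the 88, with 75 windows in all. Where a member had several annotated starts, the start with the longest run of C and T within 20 bases is shown. The choice of window thus favours long runs. Capitals mark the longest unbroken run of C and T in the bases shown.
Rpl35 (chr2:39005117-39005146, - strand): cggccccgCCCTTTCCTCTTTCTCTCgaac
Rpl28 (chr7:4792950-4792979, + strand): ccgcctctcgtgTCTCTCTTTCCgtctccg
Rpl7a (chr2:26910792-26910821, + strand): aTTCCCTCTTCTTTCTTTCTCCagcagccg
Rpl38 (chr11:114668565-114668594, + strand): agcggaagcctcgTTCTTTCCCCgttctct
Rpl18 (chr7:45718056-45718085, + strand): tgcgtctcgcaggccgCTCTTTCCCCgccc
Rps18 (chr17:33955651-33955680, - strand): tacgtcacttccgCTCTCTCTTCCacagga
Rpl22l1 (chr3:28805493-28805522, + strand): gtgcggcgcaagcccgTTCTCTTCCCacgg
Rpl7l1 (chr17:46782642-46782671, - strand): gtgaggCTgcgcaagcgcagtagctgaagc
Rpl24 (chr16:55966260-55966289, + strand): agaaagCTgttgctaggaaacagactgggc
Rpl10 (chrX:74270801-74270830, + strand): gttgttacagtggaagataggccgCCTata
Rpl41 (chr10:128549154-128549183, - strand): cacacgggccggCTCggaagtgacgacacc
The first 7, which include the copy Rpl22l1, hold a run of 10 bases or more. The copy Rpl7l1 and the structural members Rpl24, Rpl10 and Rpl41 have runs of at most 3 bases, so structural genes and copies occur on both sides. A run of at least 8 pyrimidines within 20 bases of the start was found in 30 of the 63 members (47.6%), against 18.4% of the 27025 genes with a window. CTTTCC, searched on the transcribed strand in the same stretch, was in 17.5% of the members and in 2.30% of all genes. On both strands of the whole window, CCGGAAG, the core bound by ETS factors such as GABP, was in 41.3% against 9.93%. These are matches of letters at annotated starts, counted if any window of a gene held them, and no factor binding was measured.

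First, the share of a neuron's UMIs that fell on the members was followed over the stages. It was computed for every kept neuron, and a plate is given by the mean of its neurons. At e14.5 the 2 plates stood at 3.88% and 4.12%, and at p0 at 2.60% and 2.66%. At p12 the 4 plates stood at 1.60%, 1.87%, 1.13% and 1.25%, and in the adult the 5 plates stood at 1.45%, 1.43%, 1.38%, 1.48% and 1.39%. The e14.5 plates were thus above the p0 plates, and the p0 plates above every p12 and adult plate, whereas the adult values lay inside the p12 range. The means were 4.00% ± 0.17 (SD, n = 2), 2.63% ± 0.043 (n = 2), 1.46% ± 0.34 (n = 4) and 1.43% ± 0.041 (n = 5), so that the share was 1.52 times higher at e14.5 than at p0 and 1.84 times higher at p0 than in the adult. A share measures the members against all other RNA, and less ribosomal protein RNA per neuron cannot be told apart from more of other RNA. Mean depth was 11174 UMIs per kept neuron at e14.5 and between 30623 and 44511 at the other stages. Among neurons of 1 plate, the correlation of the share with log10 UMIs ran from -0.51 to 0.28 (cells of 1 library, a description).

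**Figure D1:**
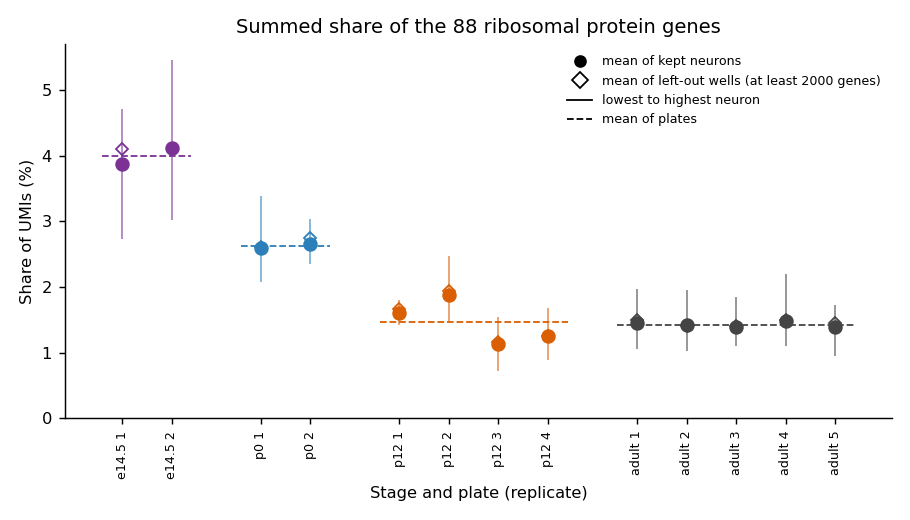
Share of UMIs on the 88 ribosomal protein genes (y axis, percent) for each of the 13 plates (x axis), with the mean of kept neurons (filled circles), the range over neurons (vertical lines), the mean of wells with at least 2000 genes that the authors left out (open diamonds) and the mean of plates (dashed lines). The share stands near 4.00% at e14.5 and 2.63% at p0, the p12 plates fall in pairs, and the adult plates lie between 1.38% and 1.48%.

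The p12 plates fell into pairs. Replicates 1 and 2, on which the authors' p12 clusters 2 and 3 lie, averaged 1.74%, and replicates 3 and 4, which hold clusters 1, 4 and 5, averaged 1.19%, a ratio of 1.47. The pairs also differed in kept neurons (12 and 13 against 67 and 62), in mean depth (65165 and 52324 UMIs against 28433 and 21753) and in Apoe, a satellite glia gene (408 and 331 counts per 1000000 UMIs, CPM, against 110 and 146). The 6 proprioceptor markers (Pvalb, Runx3, Ntrk3, Etv1, Whrn and Spp1) summed to between 4591 and 5050 CPM on the 4 plates, but 5 general sensory neuron markers (Isl1, Tubb3, Rbfox3, Nefh and Slc17a7) summed to 6943 and 6468 CPM against 4023 and 3531 CPM, and 5 fibroblast and endothelial markers (Col1a1, Dcn, Col3a1, Pecam1 and Cldn5, the last at 0 throughout) to 18.2 and 21.7 CPM against 5.44 and 3.59 CPM, in the same pairs. Mitochondrially encoded genes held 2.42%, 2.93%, 3.15% and 3.24% of UMIs. A list of 5 Schwann cell markers did not follow the pairs, at 101, 33.3, 70.9 and 78.0 CPM. In wells left out by the authors on the same plates the member share was 1.66%, 1.94%, 1.17% and 1.25%, again in these pairs. The part of depth, other RNA or cluster in the gap was not tested. Every statement on p12 below therefore rests on plates that disagree.

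The share of the large subunit was spread more widely over the stages than that of the small one (a description, with no test). Its 43 genes held 2.15% ± 0.099 of UMIs at e14.5, 1.23% ± 0.032 at p0, 0.643% ± 0.22 at p12 and 0.667% ± 0.045 in the adult, against 1.55% ± 0.056, 1.09% ± 0.015, 0.632% ± 0.096 and 0.604% ± 0.017 for the 31 genes of the small subunit (SD over plates). The ratio of large to small was 1.37 and 1.39 on the e14.5 plates and 1.12 and 1.14 on the p0 plates. It was 1.11, 1.22, 0.834 and 0.823 on the p12 plates and from 1.02 to 1.20 in the adult. The e14.5 plates thus stood above all others. The large subunit gene Rpl35 alone made up 8.50% of the member CPM at e14.5. It averaged 3402 CPM there, against 533 CPM at p0, 240 CPM at p12 and 361 CPM in the adult. How far the ratio and the wider spread of the large subunit rest on Rpl35 was not tested. The stalk genes Rplp0, Rplp1 and Rplp2, whose proteins form the arm that recruits elongation factors, held 0.218% at e14.5 and 0.212% at p0, with overlapping plates, and 0.125% and 0.113% at p12 and in the adult. Neurons that had more of one subunit had more of the other, with a correlation of the large and small shares between 0.52 and 0.87 over the neurons of a plate. These neurons share a library, and depth was not removed.

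Levels differed widely between members. Values are CPM, as the mean of the neurons on a plate, and are not scaled by length because each UMI tags the 3′ end of a transcript. Rpl41, the smallest ribosomal protein, led on average over the stages with 1398 CPM, followed by Rpl35 (1134), Rps14 (1054), Rpl38 (951) and Rps26 (873). At the other end, 18 of the 88 averaged below 10 CPM in the adult. Among them were Rps6, the S6 kinase substrate, at 0.964 ± 1.0 CPM (SD, n = 5), Rpl5, a 5S RNA partner, at 1.29 ± 1.2 and Rpl10, which joins the large subunit last, at 2.47 ± 0.89. A ribosome holds 1 copy of each of these proteins. How reads with several placements were counted is not given in the sources used here. In the comparison of 3′ ends below, Rpl5 shared no stretch of read length with another gene. Rps6 and Rpl10 shared 87.8% and 100% of theirs. The cause of the low levels was not tested.

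**Figure D2:**
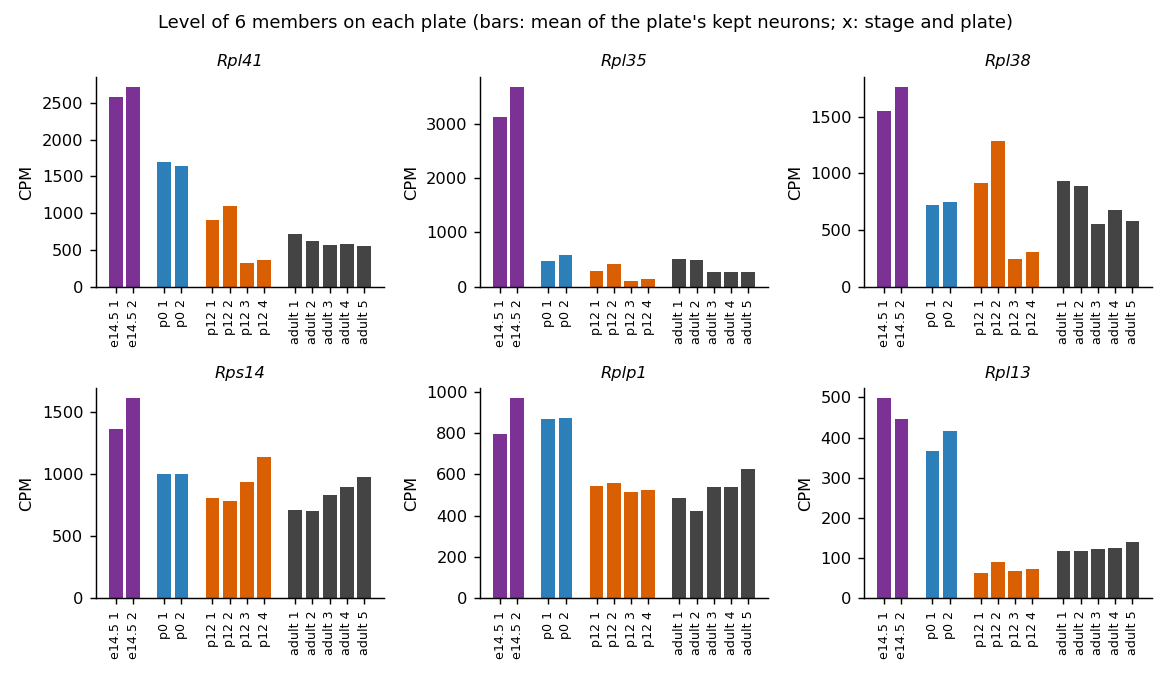
Level of Rpl41, Rpl35, Rpl38, Rps14, Rplp1 and Rpl13 on each plate (y axis, CPM from 0, with its own scale in each panel; x axis, stage and plate; bars, mean of the kept neurons). Rpl35 drops from 3131 and 3674 CPM at e14.5 to 591 or less on every later plate, Rpl41 and Rpl38 differ between the p12 pairs, and Rps14 and Rplp1 vary less.

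Between e14.5 and p0, 20 of the 83 members that passed the filter on low counts fell and none rose in the model over all plates (edgeR quasi-likelihood test on plate sums, Benjamini-Hochberg adjusted p below 0.05 over 11939 genes). Of all genes tested, 27.3% passed, 12.5% as lower and 14.7% as higher. Markers moved in the same interval: Apoe was at 6.997 and 0 CPM at e14.5 and at 246 and 336 CPM at p0, and the proprioceptor markers summed to between 1788 and 1800 CPM and to between 5073 and 5144 CPM. Mitochondrially encoded genes held 1.62% and 1.84% of UMIs at e14.5 and 2.89% and 2.87% at p0. The part of these in the member changes was not tested. The median log2 change was -0.83 over the members and 0.01 over all genes. At an unadjusted p below 0.05 there were 41 of 83 members and 4743 of 11939 genes. Of the 20, 15 belong to the large subunit and 5 to the small subunit (among them Rps7, Rps13, Rps16 and Rps27, named after their values were seen), and no stalk gene or copy passed. The 5 largest falls among called members were all of large subunit genes. Rpl28 was at 102 and 98.5 CPM on the e14.5 plates and at 6.06 and 8.08 CPM on the p0 plates. It fell by 3.86 ± 0.62 (log2, SE, adjusted p = 0.000505, edgeR). Rpl3, which lies at the peptidyl transferase centre, went from 355 and 357 CPM to 47.2 and 53.1 CPM, a fall of 3.00 ± 0.59 (adjusted p = 0.00305, edgeR). For both genes the plates of the stages were far apart. Rpl10 (25.6 and 30.8 CPM against 7.11 and 0.734 CPM), Rpl23a (85.0 and 115 against 7.67 and 12.2) and Rpl7a (73.3 and 66.8 against 7.30 and 10.7) fell by 3.53 ± 0.75, 3.34 ± 0.85 and 2.96 ± 0.61 (log2, SE, adjusted p = 0.00291, 0.0130 and 0.00285, edgeR). Rpl10 rests on 97 UMIs in all neurons. By amount, Rpl35 lost the most of any member: it stood at 3131 and 3674 CPM at e14.5 and at 474 and 591 CPM at p0, and fell by 2.66 ± 0.53 (adjusted p = 0.00326, edgeR). The other 4 members of highest mean level gave log2 changes of -0.72 ± 0.40 (Rpl41), -0.60 ± 0.27 (Rps14), -1.21 ± 0.57 (Rpl38) and -0.62 ± 0.22 (Rps26) and did not pass. Each SE comes from the model over all plates, so it also carries the spread between the p12 plates. Without 1 plate fewer members and fewer genes in general passed: 8 members were lower without p0 replicate 1 (3.71% of all genes), 12 without p0 replicate 2 (4.72%), and 13 without e14.5 replicate 1 or 2 (6.18% and 4.996%). With neurons thinned to 7000 UMIs, leaving out 18 shallower neurons at e14.5 and 2 at p12, 31 of 76 members and 13.4% of 6698 genes were lower. With e14.5 clusters 1 and 2 alone, since clusters 3 and 4 may hold other sensory neurons, 19 of 83 members and 10.9% of all genes were lower. Of the members named here, Rpl28, Rpl10, Rpl3 and Rpl35 still passed whichever p0 plate was left out, Rpl7a did not pass without p0 replicate 1, and Rpl23a, Rps7 and Rps13 did not pass when either p0 plate was left out. Calls were also lost on leaving out e14.5 plates: of 17 called, named genes, members and others, 6 without replicate 1 and 7 without replicate 2.

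From p0 to p12, 36 of 83 members fell and none rose, where 18.1% of all genes passed, 8.95% as lower and 9.11% as higher. The median log2 change was -0.87 over the members and 0.02 over all genes. The falls were spread over 18 large subunit genes, 14 small subunit genes, all 3 stalk genes and the copy Rpl22l1. Without p0 replicate 1 or 2, 19 or 14 members were lower, when 4.01% or 3.72% of all genes were. Rpl30 and Rpl13 still passed whichever p0 plate was left out, Rpl12, Rpl24 and Rps26 did not pass without p0 replicate 2, and Rpl18 and Rpl41 did not pass when either was left out. Rpl13 moved most firmly. It was at 366 and 417 CPM at p0 and at 63.6, 89.0, 67.6 and 71.7 CPM at p12, with no overlap between stages, and fell by 2.28 ± 0.17 (log2, SE, adjusted p = 6.14e-07, edgeR). Rpl30 was at 157 and 169 CPM at p0 and at 50.4, 62.7, 8.08 and 12.2 CPM at p12, and fell by 2.41 ± 0.48 (adjusted p = 0.00454, edgeR). Rpl30 showed both: every p12 plate was lower than p0, and replicates 3 and 4 were lower again. Rpl24 (fall of 1.92 ± 0.52), Rpl12 (1.90 ± 0.47), which sits at the base of the stalk, and Rpl18 (1.84 ± 0.49) made up the 5 largest falls (adjusted p = 0.0177, 0.0107 and 0.0222, edgeR). Rpl41 went from 1702 and 1644 CPM to 904, 1095, 321 and 365 CPM and fell by 1.29 ± 0.33 (adjusted p = 0.0143, edgeR), and Rps26, at 1006 and 1056 against 463, 625, 501 and 491 CPM, fell by 0.87 ± 0.19 (adjusted p = 0.0044, edgeR).

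All 3 stalk genes fell in this interval by similar amounts. Rplp0 went from 753 and 726 CPM to 476, 456, 321 and 327 CPM, a fall of 0.81 ± 0.18 (adjusted p = 0.0048, edgeR). Rplp1 went from 870 and 872 CPM to 544, 560, 515 and 524 CPM, a fall of 0.61 ± 0.18 (adjusted p = 0.0258), and Rplp2 from 522 and 506 CPM to 316, 417, 264 and 266 CPM, a fall of 0.61 ± 0.18 (adjusted p = 0.0265). Rplp0 did not pass without p0 replicate 1, and Rplp1 and Rplp2 did not when either p0 plate was left out. Their p0 plates lay above every p12 plate, and the p12 pairs of Rplp1 lay close together. Rps14 and Rpl38 gave log2 changes of -0.05 ± 0.23 and -0.04 ± 0.49 and did not pass. Rpl38 was at 725 and 746 CPM at p0, which lies between its p12 pairs (917 and 1288 against 246 and 307 CPM).

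From p12 to the adult few members passed. Higher in the adult were Rpl13, Rpsa, Rpl13a and Rpl26, and lower was Rpl32, 5 of 83 (6.02%) where 13.6% of all genes passed (7.36% higher, 6.26% lower). At an unadjusted p below 0.05 there were 15 of 83 members and 3624 of 11939 genes. Rpsa, the laminin receptor precursor, was at 36.4, 56.6, 27.8 and 37.3 CPM at p12 and at 107, 105, 64.3, 62.9 and 86.1 CPM in the adult, a rise of 1.03 ± 0.21 (log2, SE, adjusted p = 0.00431, edgeR). Rpl13 rose by 0.72 ± 0.14 to 117, 117, 122, 124 and 140 CPM (adjusted p = 0.00387), and Rpl13a by 0.72 ± 0.18 (adjusted p = 0.0178, edgeR). Rpl26 stood at 454, 557, 478 and 561 CPM at p12 and at 707, 705, 735, 792 and 662 CPM in the adult, a rise of 0.50 ± 0.15 (adjusted p = 0.0332). For these genes the adult plates all lay above the p12 plates. Rpl32 stood at 278, 393, 278 and 251 CPM at p12 and at 159, 190, 233, 238 and 194 CPM in the adult, and fell by 0.54 ± 0.17 (adjusted p = 0.0414, edgeR). With single plates left out, 10 were higher without p12 replicate 2 (7.50% of all genes) and 2 without p12 replicate 3 or adult replicate 4 (3.73% or 5.37%). Rpl32 no longer passed without p12 replicate 3 or 4 or adult replicate 1 or 2. Without p12 replicates 1 and 2, 39 members were higher and 5 lower in the adult (13.1% of all genes in each direction), and without replicates 3 and 4, 2 were higher and 10 lower (2.76% and 2.56% of all genes). For p12 against p0 the count lower was 60 without replicates 1 and 2 (11.2% of all genes) and 33 without replicates 3 and 4 (10.1%). These omissions were chosen after the data had been seen. The direct comparison of adult with p0, in which the p12 plates entered the filter, scaling and spread, gave 39 of 83 members lower and none higher, against 16.2% and 17.8% of all genes, 34.1% together. With all p12 plates left out of the fit, also chosen after the data had been seen, 51 of 82 were lower and none higher (18.9% and 19.7% of all genes). Leaving out p0 replicate 1 or 2 lowered the count of 39 to 18 or 16, with 8.52% or 8.86% of all genes lower.

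**Figure D3:**
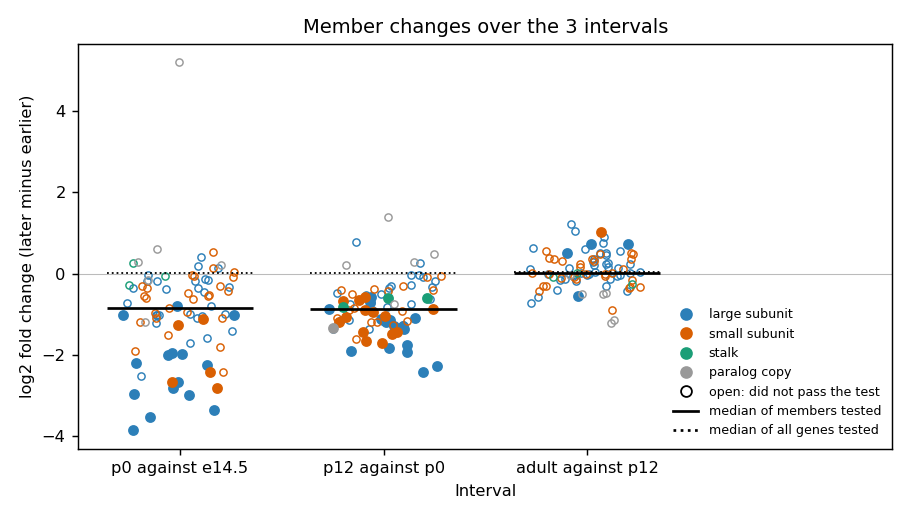
log2 fold change (y axis, later minus earlier stage) of the 83 tested members in the 3 intervals (x axis), coloured by subunit, with filled points for members that passed the test, solid lines for the median of members and dotted lines for the median of all genes. The medians are -0.83, -0.87 and 0.01, and the highest point, an open circle in the first interval, is Rpl3l, which had no UMI at e14.5.

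The copies were set beside the genes they resemble, as CPM within pairs. Rpl22l1, a copy of Rpl22, was at 290 and 312 CPM at e14.5 and 378 and 334 CPM at p0, 190, 239, 64.7 and 74.5 CPM at p12 and 119, 99.1, 90.4, 85.8 and 62.1 CPM in the adult. It fell by 1.34 ± 0.38 from p0 to p12 (log2, SE, adjusted p = 0.0271, edgeR), a call lost when either p0 plate was left out. Rpl22 itself averaged 116, 116, 79.3 and 89.2 CPM at the 4 stages and passed in no successive interval, so that the ratio of Rpl22 to Rpl22l1 went from 0.385 and 0.325 at e14.5 and p0 to 0.978 in the adult (0.584 to 1.81 over the adult plates). Rps27l, whose gene is known as a p53 target, was read far above Rps27: 349 against 62.3 CPM at e14.5, 311 against 24.5 at p0, 334 against 25.5 at p12 and 238 against 16.6 in the adult. Rps27 fell by 1.26 ± 0.29 from e14.5 to p0 (adjusted p = 0.00525, edgeR, not passed without p0 replicate 1), and Rps27l passed in no successive interval. Of the 3′ end of Rps27, 98.6% is also spelled in other genes, and its level is uncertain.

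Rps4l, a copy of the X-linked Rps4x, was at 92.0 CPM at e14.5, 149 at p0, 80.4 at p12 and 49.0 in the adult, when Rps4x was at 314, 171, 74.2 and 83.4 CPM. The ratio of Rps4x to Rps4l was 3.41 at e14.5 and 1.15 at p0. Rpl7l1, a paralog of Rpl7, was at 31.9, 43.4, 44.6 and 43.3 CPM, while Rpl7 read 384, 207, 79.0 and 93.2 CPM. None of the 4 genes passed between successive stages. The last pairs were near the floor. Rpl3l, known from heart and skeletal muscle, had no UMI at e14.5 and averaged between 3.59 and 7.73 CPM later. Rpl10l, known from testis, had 7 UMIs in all neurons and none in the adult, and Rpl39l had 6 UMIs in all, when Rpl39 averaged 293, 349, 149 and 108 CPM and fell by 1.09 ± 0.24 from p0 to p12 (adjusted p = 0.00452, edgeR, not passed without p0 replicate 1).

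**Figure D4:**
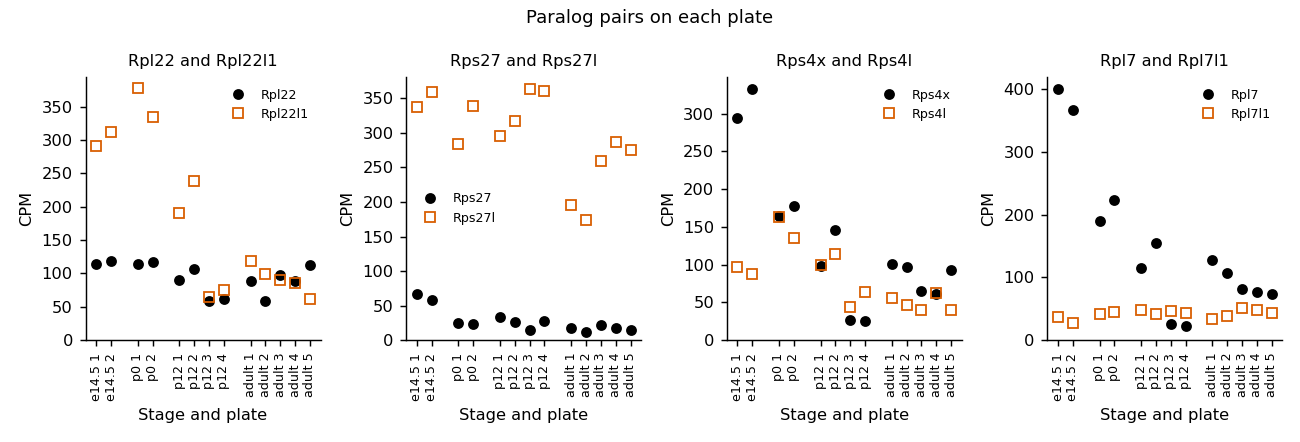
Level of Rpl22 and Rpl22l1, Rps27 and Rps27l, Rps4x and Rps4l, and Rpl7 and Rpl7l1 (y axis, mean CPM of the kept neurons) on each plate (x axis). Rps27l lies above Rps27 on all 13 plates, and Rpl7l1 stays between 26.5 and 51.5 CPM.

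Because many members have near copies in the genome, the last 400 bases of each transcript (GENCODE M21, GRCm38) were cut into all words of 58 bases, the length of the reads, and each word was looked for in the transcripts of other genes. Of the 77 structural members (large, small and stalk), 13 shared no word, 20 shared fewer than 50% and 44 shared 50% or more, mostly with annotated pseudogenes. The 13 that shared none, among them Rpl4, Rpl5, Rpl12, Rpl13a, Rpl28, Rps3 and Rps24, held 0.583% and 0.624% of UMIs at e14.5, 0.481% and 0.501% at p0, 0.286%, 0.326%, 0.256% and 0.285% at p12 and between 0.253% and 0.290% in the adult. The e14.5 plates stayed above p0 and the p0 plates above p12 and adult. The e14.5 to p0 ratio of this sum was 1.23 and the ratio between the p12 pairs was 1.13, against 1.85 and 1.68 for the 44 members that shared 50% or more. For the 20 members in between, these ratios were 1.35 and 1.51. From p0 to the adult the ratios of the 3 groups were 1.82, 1.65 and 2.03, in order of sharing, so this one did not increase steadily with sharing.

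In the test from e14.5 to p0, 2 of the 13 members without shared words fell (Rpl13a and Rpl28), 2 of the 20 and 16 of the 44, with median log2 changes of -0.37, -0.32 and -1.07, beside 12.5% of all genes lower. From p0 to p12, 7 of 13, 8 of 20 and 20 of 44 fell, with medians of -0.69, -0.64 and -1.11, beside 8.95% of all genes lower. The -ps rows, 278 rows of pseudogenes of the same families, held 1.10% of UMIs at e14.5, 0.503% at p0, 0.235% at p12 and 0.209% in the adult, and all rows that RefSeq lists as pseudogenes held 9.54%, 4.61%, 3.07% and 2.68%. At p12 the -ps share ran against the member share, at 0.145% and 0.205% on replicates 1 and 2 and 0.269% and 0.319% on replicates 3 and 4. The part of read placement in the member values was not tested.

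**Figure D5:**
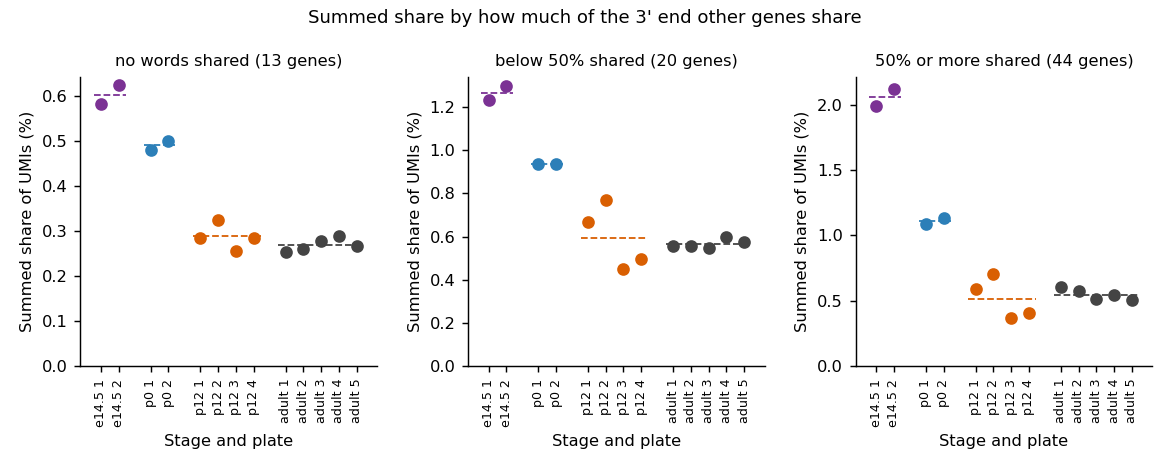
Summed share of UMIs (y axis, percent from 0, with its own scale in each panel) on each plate (x axis) for structural members whose 3′ ends share no 58-base word with another gene (13 genes), below 50% of words (20 genes) and 50% or more (44 genes). Dashed lines are means of plates. The p12 pairs lie close in the first panel and apart in the others.

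The neurons' clusters were compared next, with plate as a term, on UMIs summed per cluster and plate. The authors built the clusters from the same counts, so a difference between them is not independent of how they were made. At e14.5 and p0 no member passed (0 of 75 and 0 of 65, edgeR), where 8.61% and 2.35% of all genes did. At an unadjusted p below 0.05 there were 3 of 75 and 1 of 65 members, beside 877 of 4912 and 560 of 5061 genes. DESeq2 called none at either stage (1.79% and 1.01% of all genes). Without a filter on low counts edgeR called 1 at each (2.25% and 1.25% of all genes). The summed share at e14.5 was 4.19% and 4.31% in cluster 1 and 3.81% and 3.96% in cluster 2 on the 2 plates, higher in cluster 1 on both. It was 3.80% and 4.24% in cluster 3, and 4.35% in cluster 4 on replicate 2 (5 neurons), above cluster 1 there. Mean depth in cluster 1, at 10080 and 7549 UMIs per neuron, was below that of clusters 2 and 3 on both plates. At p0 the 3 clusters overlapped between 2.51% and 2.88%.

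In the adult, 10 of 67 members differed between the 5 numbered clusters (14.9%), where 18.1% of all genes did. Rps4l gave the lowest p (adjusted p = 0.000214, edgeR F-test). In the plate sums of cluster 1 it was at 108, 65.3, 88.2, 114 and 44.2 CPM. The other clusters lay between 21.6 and 86.1 CPM, so the ranges overlapped. Against the mean of the other clusters, a test in which 13.4% of all genes passed, Rps4l was higher in cluster 1 by 1.15 ± 0.20 (log2, SE, adjusted p = 2.29e-05, edgeR). The cluster 1 plate of 44.2 CPM holds 3 neurons. Rps18 was at 185 and 233 CPM in cluster 4 and between 123 and 223 CPM in cluster 5, against 88.2 to 134 CPM in cluster 1, and was lower in cluster 1 by 0.39 ± 0.12 (log2 change -0.39, adjusted p = 0.0202) and higher in cluster 5 by 0.37 ± 0.12 (adjusted p = 0.0433, edgeR, 8.01% of all genes). Rpl32 was lower in cluster 1 (log2 change -0.38 ± 0.11, adjusted p = 0.0148), with 101 to 203 CPM against 155 to 264 CPM in cluster 5. Without the plate term the Rps4l call held (log2 change 1.08, adjusted p = 0.00751), while Rps18 in cluster 1 (adjusted p = 0.113) and cluster 5 (adjusted p = 0.389) and Rpl32 in cluster 1 (adjusted p = 0.285, edgeR) did not pass. Without the plate term 4 of 67 members passed (9.55% of all genes), with DESeq2 5 of 67 (12.6%), and with neurons thinned to 7000 UMIs 0 of 43 (12.8% of 2131 genes). Without adult replicate 1 or 2, 6 of 68 or 3 of 71 passed (12.2% or 13.6% of all genes).

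The summed share was between 1.43% and 1.56% in adult cluster 5 and between 1.22% and 1.49% in cluster 1, with higher values in cluster 5 on all 5 plates, by the least on replicate 1 (1.430% against 1.429%). Cluster 4, on replicates 1 and 2 only, had 1.461% and 1.469%, against 1.430% and 1.490% in cluster 5 there. Cluster 2 had 1.25% and 1.35% on these plates, and cluster 3 between 1.22% and 1.40% on replicates 2 to 5. Neurons that carried no number (42 neurons) had 1.59%, 1.61%, 1.52%, 1.56% and 1.60% on the 5 plates, when the numbered neurons had 1.44%, 1.39%, 1.34%, 1.45% and 1.28%. They were higher on all 5 plates, by 0.108 to 0.318 percentage points. Their mean depth was below that of the numbered neurons on 4 plates and above it on replicate 3.

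At p12, 5 of 67 members differed between clusters of the same plates (7.46%), where 15.5% of all genes did: Rps14, Rps3, Rpl41, Rpl32 and Rplp1. Clusters 1, 4 and 5 share replicates 3 and 4. Rps14 was at 1104 and 1208 CPM in cluster 1, 863 and 979 in cluster 4 and 761 and 1133 in cluster 5, and was higher in cluster 1 by 0.38 ± 0.098 (log2, SE, adjusted p = 0.00277, edgeR, 12.7% of all genes). Rps3 (higher by 0.43 ± 0.12, adjusted p = 0.00665) and Rpl41 (0.44 ± 0.14, adjusted p = 0.0208, edgeR) were also higher in cluster 1, the cluster of lowest depth (16265 and 16328 UMIs per neuron). Without the plate term the count was 41 of 67, with 32.9% of all genes called, since that fit also sets the 2 pairs of plates against each other. There Rpl41 turned its direction and was lower in cluster 1 (log2 change -0.37, adjusted p = 0.0451, edgeR). With DESeq2 none passed (5.23% of all genes), with thinned neurons 1 of 38 (12.4%), and without replicate 3 or 4, 1 or 2 did (7.05% or 8.47%). Between clusters 2 and 3, which share replicates 1 and 2, no member passed, where 7.47% of all genes did (edgeR). At an unadjusted p below 0.05 there were 7 of 67 members and 1146 of 6209 genes.

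The adult plates were also compared as sets (replicates 1 and 2 against 3 to 5). This division was chosen with earlier results of these data known and is not the study's own. Apart from global reads, the study reported no qualitative differences between plates. Within clusters 1 and 5, 9 of 68 members were higher and 11 lower on replicates 1 and 2 (9.31% and 8.10% of all genes, 17.4% together). When thinned, 2 of 48 were higher and 1 lower (10.1% and 4.85% of all genes). Without replicate 1 or 2, 5 were higher and 5 lower (11.8% or 9.57% of all genes in either direction). Without replicate 3 or 4, 5 were lower (6.73% or 6.32%) and 6 or 9 higher (8.26% or 7.73%). Without replicate 5, 11 were higher and 15 lower (9.13% and 7.94%). Of the members whose 3′ ends share 50% or more, 7 of 34 were higher and 1 lower. Of those that share some words but below 50%, 2 of 19 were higher and 5 lower, and of those that share no word, 4 of 11 were lower and none higher. In cluster 1 Rpl35 was at 400 and 371 CPM on replicates 1 and 2 and at 243, 258 and 196 CPM on the other plates, and in cluster 5 at 532 and 466 against 224, 251 and 240 CPM, a difference of 0.87 ± 0.11 (log2, SE, adjusted p = 3.36e-08, edgeR), and all 3 stalk genes were lower on replicates 1 and 2, by 0.40 ± 0.096 in the case of Rplp1 (log2 change -0.40, adjusted p = 0.00229). 

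Other genes of translation were counted for comparison. The counts stand beside 14.7% of all genes higher and 12.5% lower from e14.5 to p0, 9.11% and 8.95% from p0 to p12, and 7.36% and 6.26% from p12 to the adult. Of a list of 14 genes, mostly elongation factors, 2 rose and 1 fell from e14.5 to p0. From p0 to p12 1 rose and 3 fell, and 2 rose and 1 fell to the adult. The fall in the first interval was that of Tpt1 (log2 change -1.45, adjusted p = 0.00297, edgeR), and no elongation factor fell there. Tpt1 was also 1 of the 2 that rose to the adult (log2 change 0.73, adjusted p = 0.0389, edgeR). Eef1a2, the elongation factor 1A form of mature neurons, was at 136 and 119 CPM at e14.5, 617 and 622 at p0, 358, 246, 334 and 357 at p12 and between 751 and 820 in the adult. It rose by 2.22 ± 0.24 by p0, fell by 0.81 ± 0.19 by p12 and rose by 1.25 ± 0.15 to the adult (log2, SE, adjusted p = 1.19e-05, 0.00701 and 0.000113, edgeR), and the middle call was lost when either p0 plate was left out. Eef1a1, the form of growing cells and itself a terminal oligopyrimidine transcript, averaged 1156 and 1331 CPM at e14.5, 480 and 502 at p0, 271, 264, 24.7 and 32.0 at p12 and 75.5 to 166 in the adult, and passed between no successive stages, with the p12 plates in the same pairs, but was lower in the adult than at p0 (log2 change -2.08 ± 0.71, adjusted p = 0.0439, edgeR). Eef2 stayed between 336 and 502 CPM and passed in none of these.

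Among proteins bound to or fused with ribosomal proteins, Rack1 read 258 and 321 CPM at e14.5 and 109 to 152 CPM in the adult and Fau 279 and 365 CPM against 67.9 to 126 CPM, and neither passed between successive stages, though Rack1 was lower in the adult than at p0 (log2 change -0.69 ± 0.17, adjusted p = 0.00537, edgeR). Rpl36al did not pass either. Of 46 tested genes of ribosome biogenesis, 2 rose and 2 fell from e14.5 to p0, 1 rose and 4 fell from p0 to p12, and none passed from p12 to the adult. The nucleolar chaperone Npm1 went from 308 and 307 CPM at p0 to 156, 162, 129 and 126 CPM at p12, a fall of 0.98 ± 0.24 (adjusted p = 0.00843, edgeR, lost when either p0 plate was left out), and Ncl, the other main nucleolar protein, passed in none. Of 76 genes of the mitochondrial ribosome, 11 rose and 1 fell from e14.5 to p0, with a median log2 change of 0.43, 5 rose and 1 fell from p0 to p12, and 2 rose and 3 fell to the adult. The counts higher and lower in these 3 intervals were 4 and 1, 2 and 4, and 2 and 3 for 48 initiation genes, 1 and 2, none, and none for 12 genes of RNA polymerase I, and 2 and 2, 1 and 2, and 2 and 1 for 16 regulators of terminal oligopyrimidine transcripts. Of these, Mtor rose by 1.06 ± 0.26 and Larp1 by 1.03 ± 0.32 from e14.5 to p0, and Larp4b fell by 1.40 ± 0.43 (log2, SE, adjusted p = 0.00684, 0.0263 and 0.0250, edgeR). Mycn, a transcription factor of growing and dividing progenitors, also fell (adjusted p = 1.16e-05, edgeR), from 66.4 and 96.5 CPM at e14.5 to 1.60 and 0 CPM at p0. The calls of Mtor, Larp1 and Larp4b were each lost on leaving out at least 1 plate (Mtor without e14.5 replicate 2, Larp1 without p0 replicate 2 or either e14.5 plate, Larp4b without any 1 of the 4), and that of Mycn was not.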

How the data were processed

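Per the labels and the study's methods, the authors sorted single neurons into 96-well plates, added well barcodes and UMIs at reverse transcription, aligned reads to mm10 (GRCm38) with STAR and deposited UMI counts per gene and well, with a list of kept neurons and their clusters. Versions and the treatment of reads with several placements are not given in the sources used here. Kept UMIs per plate ran from 680212 to 2387288, which limits members with few UMIs.

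Members, comparison lists, the rule for named genes and the adult plate sets were chosen with earlier results of these data known. Counts were summed per plate (stages) or per cluster and plate (at least 2 neurons), filtered with filterByExpr, scaled by TMM and tested with edgeR 4.0.16 (quasi-likelihood, adjusted p below 0.05 over all genes tested), in 1 model over the 13 plates for stages. Stage contrasts share plates. Summed shares were given no test. Some single genes are not reported here. DESeq2 1.42.0, other scalings, no filter, neurons thinned to 7000 UMIs, all wells with at least 2000 genes and leaving out plates were alternatives. Named were the 5 largest called falls and rises of each interval, the 5 members of highest mean CPM, 7 paralog pairs, the 3 members of lowest p in each cluster test where called and the stalk genes. Replicate numbers follow accession order and pair no samples. R 4.3.3 and Python were used.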

Additional observations from a re-analysis of the deposited data

Results flagged for a closer look

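Among 81 groups of p12 or adult plates (member shares and named genes), 4 had 1 plate far from the others by Dixon's test at 95%, which flags about 1 group in 20 by chance. These were the small subunit share of adult replicate 4 (0.633%, above the other 4 plates), Rpl12 on adult replicate 5 (23.6 CPM, above the others), and Rpl10l (0.593 CPM) and Rpl39l (0.340 CPM) on p12 replicate 4, the only p12 plate with a UMI of either.

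Rows outside the member list also held signal. The -ps rows took 1.10%, 0.503%, 0.235% and 0.209% of UMIs at e14.5, p0, p12 and in the adult. Wells that the authors left out held member shares of 1.66%, 1.94%, 1.17% and 1.25% on p12 replicates 1 to 4.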

How the results depend on the processing

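Alternatives on read sharing, -ps rows and the p12 pairs were chosen after seeing the data. Over 42 pairs of a called, named gene and an interval (578 refits), 462 still passed and none turned its direction. Of 35 such pairs that use p0, 18 no longer passed without p0 replicate 1 and 17 without p0 replicate 2. The count of members lower from e14.5 to p0 was 31 with neurons thinned to 7000 UMIs, and 8 to 13 leaving out 1 plate, and without a filter 30 members were lower and 1 higher (Rpl3l). With all wells of at least 2000 genes, 20 were lower and 3 higher (Rpl3l, Rpl8 and Rps20, named after their values were seen). From p0 to p12 the count lower was 14 to 43 leaving out 1 plate (3.72% of all genes at 14, 8.18% at 43). It was 60 without p12 replicates 1 and 2 (11.2%). In this interval 1 was higher without p12 replicate 1 (Rpl3l, 9.48% of all genes), without replicates 1 and 2 (Rps3a3, 12.4%) and without replicates 3 and 4 (Rpl28, 9.83%). From p0 to the adult the count lower was 16 to 37 leaving out 1 plate (8.86% of all genes at 16, 16.3% at 37), and 51 without any p12 plate (18.9%). From p12 to the adult, members higher were 2 to 10 leaving out 1 plate (3.73% or 5.37% of all genes at 2, 7.50% at 10). There were 39 higher without p12 replicates 1 and 2 (13.1%) and 2 without replicates 3 and 4 (2.76%). Members lower were 0 to 5 leaving out 1 plate (3.27% to 5.53% of all genes at 0, 8.60% at 5). There were 2 lower without a filter (4.00%), with DESeq2 (7.13%) or with numbered clusters only (6.62%). Without adult replicates 1 and 2 or 3 to 5, 0 and 3 were lower (5.80% and 6.5%). Without p12 replicates 1 and 2 or 3 and 4, 5 and 10 were lower (13.1% and 2.56%). Between adult plate sets 2 were higher and 1 lower when thinned (10.1% and 4.85% of all genes). Leaving out 1 plate, 5 to 11 were higher (5.47% to 9.13%) and 5 to 15 lower (4.10% to 7.94%).

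Without the replicate block, 4 members were called between adult clusters (9.55% of all genes) and 41 between p12 clusters (32.9%). Rpl41 in p12 cluster 1 turned its direction there (log2 change -0.37). For adult clusters DESeq2 gave 5 (12.6% of all genes), thinning 0 (12.8%) and leaving out 1 plate 3 to 10 (13.6% at 3, 14.6% at 10). For p12 clusters the count was 3 with sums of at least 4 neurons (11.8% of all genes), 1 when thinned (12.4%) and 0 with DESeq2 (5.23%). Leaving out 1 plate it was 1 to 7 (7.05% at 1, 11.5% at 7). Without a filter 1 member was called at e14.5 and at p0 (2.25% and 1.25% of all genes). The cause was not tested. The p0 share was 2.70% with Fau, Rpl36al and Rack1 added and 2.71% without mitochondrially encoded genes in the total, and the adult share 1.48% with the former. With -ps rows added the shares were 5.11%, 3.13%, 1.70% and 1.64%. Over members with unshared 3′ ends they were 0.604%, 0.491%, 0.288% and 0.270%, and over those with 50% or more shared 2.05%, 1.11%, 0.516% and 0.547%. Adult cluster 4 stood at 1.51% with pooled UMIs, against 1.47% as the mean of neurons. Leaving out 1 plate the share was 3.88% to 4.12%, 2.60% to 2.66%, 1.32% to 1.57% and 1.41% to 1.44% at the 4 stages.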
